A study of Homo sapiens with 6 samples.

Results

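The 10 genes described here are ATF3, the FOS genes FOS, FOSB, FOSL1 and FOSL2, the JUN genes JUN, JUNB and JUND, and 2 further basic leucine zipper genes, BATF3 and MAFF. They were taken by symbol from the deposited tables, which list 16279 genes, and all 10 were among the 13311 genes that passed the filter on low counts and were tested. They were listed by gene name and not by a threshold on a measured value. RNA was sequenced from 12Z cells, an established human endometriotic epithelial line. Control cells (NC, n = 3 libraries) were untreated, with no vehicle named and no time given. Treated cells (rhChemerin, n = 3) received recombinant human chemerin, an adipokine, at 10 ng/mL for 48 h, and both groups are of this 1 line, described as grown in medium with serum. The labels call the libraries of a group biological replicates without tying them to separate cultures. The p-values therefore set group differences against the spread between these libraries, which may not be that between separate cultures.

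AP-1 is a family of transcription factors that bind DNA as pairs joined through a leucine zipper. JUN proteins pair with each other or with a FOS protein, whereas FOS proteins need a JUN partner, and the pairs bind the sequence TGANTCA near their target genes. FOS, FOSB, JUN and JUNB are early response genes that growth factors and serum switch on within minutes through MAP kinases. FOSL1 and FOSL2 (FRA1 and FRA2) are induced later and last longer, JUND is expressed more steadily, and ATF3 is induced by many kinds of stress and often acts as a repressor. BATF3 pairs with JUN proteins but lacks a transactivation domain, as does MAFF, a small MAF protein. In the endometrium, AP-1 factors act together with the steroid hormone receptors.

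Totals ran from 35430881 to 38341643 counts per library. Hierarchical clustering into 2 clusters placed rhChemerin 3 alone. The epithelial keratins KRT8, KRT18 and KRT19 were abundant and made up most of the sum of the 7 epithelial markers. This sum was 1596 to 1866 FPKM (fragments scaled by gene length and library total) in NC and 1760 to 1976 in rhChemerin. It hides opposite directions. EPCAM, CDH1 and MUC1 had log2 fold changes of -1.46, -1.14 and -0.57 in rhChemerin against NC. The other 4 were above 0, with KRT8 at 0.29, KRT19 at 0.27, KRT18 at 0.16 and KRT7 at 0.08. With edgeR 0 of the 7 passed an adjusted p of 0.05, and with DESeq2 only MUC1 did (adjusted p = 0.0395). EPCAM and CDH1 stayed below 1 FPKM in each library, and the hormone receptor genes ESR1, ESR2 and PGR reached at most 0.031, 0.045 and 0.459 FPKM in any library. All 7 mesenchymal markers exceeded 1 FPKM on average, with sums of 2531 to 2846 in NC and 3568 to 4375 in rhChemerin. VIM, which encodes vimentin, made up this difference, with means of 899.6 and 2352 FPKM, whereas the means of COL3A1 (616.3 and 511.4) and PDGFRB (19.6 and 12.1) were lower in rhChemerin. Of the immune markers, PTPRC was near 0, with at most 12 counts in a library, whereas CD14 was measured at 36.9 to 51.5 FPKM in NC and 6.64 to 21.2 in rhChemerin. CD68, the most abundant of them, overlapped, at means of 97.0 and 95.6 FPKM, and LYZ overlapped as well. The endothelial markers summed to 1.61 to 2.01 FPKM in NC and 0.991 to 1.41 in rhChemerin. The part of these marker differences in the results below was not tested.

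Promoter sequences are shown for ATF3 and JUND, the 2 members whose groups did not overlap, so that their upstream motifs can be read beside their values. They are the bases before the RefSeq transcript start (assembly GRCh38.p14), each read 5′ to 3′ on the gene's strand. Windows of 250 bases were found for 8 of the 10 members, and FOSL1 and BATF3 had none. ATF3 has 2 windows, for 2 starts in the RefSeq annotation. Whether either start is used in these cells was not tested, and other starts of ATF3 were not searched. The first lies at chr1:212565157-212565406 on the plus strand, of which the stretch before the first annotated exon base, chr1:212565157-212565333, is shown. The second lies in an intron of the longer transcripts, at chr1:212614768-212615017 on the plus strand. The JUND window is chr19:18281623-18281872 on the minus strand, outside the annotated gene. Capitals mark the motifs found.

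ATF3, start 1: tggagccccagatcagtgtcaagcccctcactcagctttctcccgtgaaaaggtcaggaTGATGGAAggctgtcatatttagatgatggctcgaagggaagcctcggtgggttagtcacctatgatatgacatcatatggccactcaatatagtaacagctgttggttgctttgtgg
ATF3, start 2: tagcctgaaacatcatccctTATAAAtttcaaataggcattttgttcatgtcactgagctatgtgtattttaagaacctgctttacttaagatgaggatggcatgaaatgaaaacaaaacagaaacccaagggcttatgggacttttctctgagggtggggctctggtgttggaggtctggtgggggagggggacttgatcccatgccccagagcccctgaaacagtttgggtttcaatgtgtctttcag
JUND: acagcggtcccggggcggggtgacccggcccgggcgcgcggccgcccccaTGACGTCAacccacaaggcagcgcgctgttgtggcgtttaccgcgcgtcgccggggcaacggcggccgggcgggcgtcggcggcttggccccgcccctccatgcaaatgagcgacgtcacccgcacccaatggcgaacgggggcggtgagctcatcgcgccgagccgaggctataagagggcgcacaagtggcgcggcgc

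The first ATF3 window holds TGATGGAA, a match to TGATGNAA, the element that ATF4 and C/EBP pairs bind, at -191 to -184 from the start. That motif was present in 3.14% of 35116 RefSeq windows of the same length when both strands were searched. The second ATF3 window, which is intron sequence in the longer transcripts, holds the letters TATAAA at -230 to -225. That motif was present in 10.7% of windows. The JUND window holds TGACGTCA, the element bound by CREB and ATF proteins, at -200 to -193, which 1.65% of windows held. MAFF has the same TGACGTCA at -54 to -47 of its first window, and FOS, FOSB and JUNB each have TATAAA between -33 and -25. Neither TGANTCA, found in 6.57% of windows, nor the CArG box bound by SRF, found in 1.16%, occurred in any of the members' windows. All 250 bases of the JUN window and of both MAFF windows lie in annotated exons of these genes. Sequence farther than 250 bases from a start was not searched, so that sites there are not covered. The searched motifs do not overlap one another in these windows. These are matches of letters and not sites of binding, and reads counted per gene do not separate the starts of ATF3.

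ATF3 RNA was lower in the rhChemerin libraries, as was JUND RNA, while FOSL1 and MAFF RNA had higher means in rhChemerin with overlapping groups. For ATF3 and JUND every rhChemerin library lay below every NC library. With edgeR's quasi-likelihood test and Benjamini-Hochberg adjustment over all genes, 0 of the 10 members had an adjusted p under 0.05, against 0.0301% of all genes (4 of 13311). At an unadjusted p under 0.05, 2 members were lower and 0 higher, against 22.8% of all genes in either direction and 11.4% lower. With DESeq2, the tool used in the study, ATF3 and JUND passed an adjusted p of 0.05, against 9.38% of all genes in either direction and 5.47% lower. Libraries of the 2 groups did not overlap, on TMM-scaled counts, for 2 members, both lower, and this held for 16.0% of all genes in the lower and 16.5% in the higher direction. The median log2 fold change of the 10 members was 0.06, with 5 above and 5 below 0, against 0.01 for all genes tested. Without rhChemerin 3 the members' median was -0.17. In bulk RNA, fewer cells that express a gene and less of its RNA per cell cannot be told apart.

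**Figure D1:**
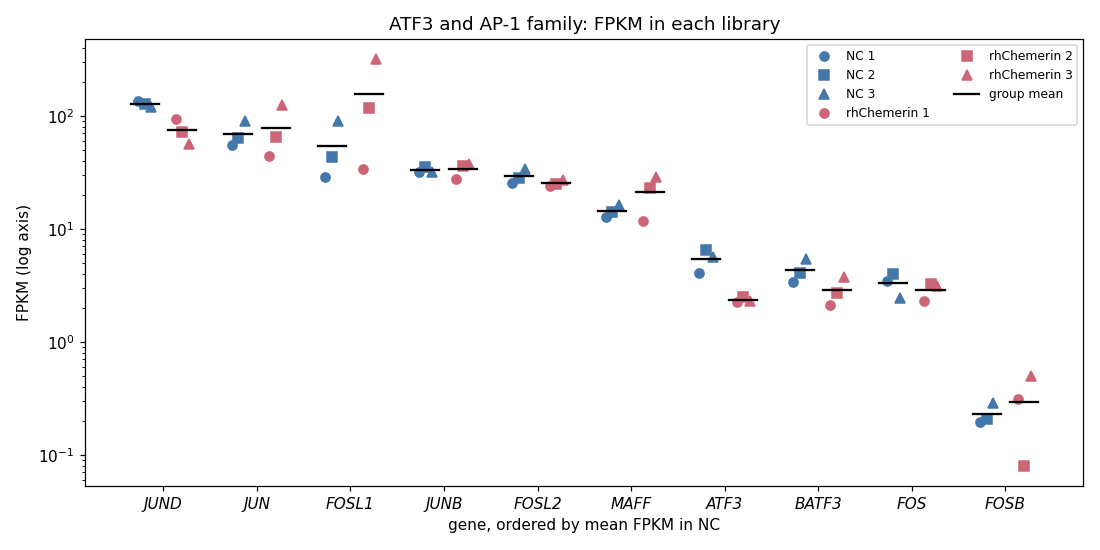
FPKM of the 10 members (log axis) in each of the 6 libraries, with NC in blue, rhChemerin in red, a marker shape for each replicate number and a black bar at each group mean (n = 3). ATF3 and JUND are the members whose rhChemerin points all lie below their NC points, and FOSL1 spans the widest range in rhChemerin, from 33.9 to 318.0 FPKM.

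ATF3 (gene 467) lies on the plus strand at chr1:212565334-212620777 (GENCODE release 29, GRCh38). Its level was 4.10, 6.55 and 5.60 FPKM in NC 1 to 3 and 2.24, 2.52 and 2.30 FPKM in rhChemerin 1 to 3. The lowest NC library stood above the highest rhChemerin library, and the rhChemerin libraries lay closer to each other than the NC libraries did. The counts behind these levels were 416, 690 and 578 in NC and 246, 262 and 247 in rhChemerin. The mean was 5.41 ± 1.24 FPKM (SD, n = 3) in NC and 2.35 ± 0.147 in rhChemerin. On the TMM-scaled counts the log2 fold change was -1.07 (SE 0.20), with an adjusted p of 0.0752 in edgeR's quasi-likelihood test and 9.51e-05 in DESeq2. Removal of single libraries gave values from -1.23 to -0.91 on the log2 scale. In these repeats the edgeR adjusted p ran from 0.0452 to 0.359, passing 0.05 without rhChemerin 1 and without rhChemerin 3, and ATF3 passed in DESeq2 in 6 of 6. ATF3 was thus lower in each repeat, while its call depended on the test and on the libraries used.

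JUND (gene 3727) lies on the minus strand at chr19:18279760-18281622 and has 1 or 2 exons. It was the most abundant member in NC, at 134, 128 and 120 FPKM, and stood at 94.0, 72.3 and 56.7 FPKM in rhChemerin 1 to 3. The groups did not overlap, and rhChemerin 3 was the lowest of the 6 libraries. The mean was 127 ± 7.26 FPKM in NC and 74.3 ± 18.8 in rhChemerin (SD, n = 3 each). The log2 fold change was -0.66 (SE 0.15), with an adjusted p of 0.0937 in edgeR and 0.00296 in DESeq2. Leaving out 1 library moved it from -0.83, without rhChemerin 1, to -0.54, without rhChemerin 3. JUND passed edgeR's threshold in the first of these repeats (adjusted p = 0.0266) and DESeq2's in 3 of 6.

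JUN (gene 3725), the founding member of the family, is a single-exon gene on the minus strand at chr1:58780788-58784327. Its level was 55.2, 63.2 and 89.8 FPKM in NC 1 to 3 and 44.0, 65.0 and 124.9 FPKM in rhChemerin 1 to 3. The lowest and the highest of the 6 libraries were both rhChemerin libraries, and the groups overlapped. The log2 fold change of 0.33 (SE 0.40; edgeR adjusted p = 0.638) became -0.26 without rhChemerin 3, so that its sign rested on that library. JUNB (gene 3726), which often counteracts JUN in growth control, is a single-exon gene on the plus strand at chr19:12791496-12793315. It was measured at 32.1, 35.3 and 31.6 FPKM in NC and 27.5, 36.0 and 37.7 FPKM in rhChemerin, with means of 33.0 ± 2.04 and 33.7 ± 5.50 (SD, n = 3). Its log2 fold change was 0.17 (SE 0.16; edgeR adjusted p = 0.528). Of the 1820 exon bases of JUNB, 259 also belong to exons of HOOK2 on the opposite strand, and since the strand setting of the counting is not given in the sources used here, JUNB counts are uncertain to that extent.

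FOSL1 (gene 8061), which encodes FRA1, lies on the minus strand at chr11:65892049-65900573. Its level was 29.02, 43.1 and 90.3 FPKM in NC 1 to 3 and 33.9, 117.7 and 318.0 FPKM in rhChemerin 1 to 3. The highest library held 9.39 times the level of the lowest within rhChemerin and 3.11 times within NC, and rhChemerin 1 lay inside the NC range. The log2 fold change was 1.71 (SE 0.79), with an adjusted p of 0.245 in edgeR and 0.258 in DESeq2. It was 0.58 without rhChemerin 3 and 2.30 without NC 3, in edgeR. In DESeq2 without rhChemerin 1, FOSL1 passed the threshold at a log2 fold change of 2.20 (adjusted p = 0.0439).

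FOSL2 (gene 2355), which encodes FRA2, lies on the plus strand at chr2:28392448-28417312. Its level was 25.7, 28.0 and 33.8 FPKM in NC and 24.2, 24.8 and 27.1 FPKM in rhChemerin. The groups overlapped, and the log2 fold change was -0.07 (SE 0.13; edgeR adjusted p = 0.780). FOS (gene 2353), at chr14:75278774-75282230 on the plus strand, is the prototype early response gene. It was present at 3.43, 3.996 and 2.47 FPKM in NC and 2.31, 3.22 and 3.15 FPKM in rhChemerin. Its groups overlapped, and the log2 fold change was -0.05 (SE 0.25; edgeR adjusted p = 0.916). FOSB (gene 2354), at chr19:45467995-45475179 on the plus strand, was the lowest member, with 11 to 70 counts per library. Its FPKM ran from 0.194 to 0.287 in NC and from 0.0803 to 0.496 in rhChemerin, and at this depth a log2 fold change of 0.52 (SE 0.64) was not distinguishable from 0 (edgeR adjusted p = 0.642).

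MAFF (gene 23764), at chr22:38200767-38216511 on the plus strand, encodes a small MAF protein that pairs with the NRF and BACH factors. Its level was 12.8, 14.0 and 16.2 FPKM in NC and 11.7, 23.0 and 28.6 FPKM in rhChemerin. The highest 2 libraries and the lowest library were all rhChemerin libraries. The log2 fold change was 0.71 (SE 0.32), with an adjusted p of 0.240 in edgeR and 0.130 in DESeq2. Without rhChemerin 1 it was 1.01 and passed edgeR's threshold (adjusted p = 0.0294), and without rhChemerin 3 it was 0.37. BATF3 (gene 55509), known for its part in dendritic cells, lies on the minus strand at chr1:212686418-212699985. Its level was 3.42, 4.07 and 5.45 FPKM in NC and 2.13, 2.68 and 3.75 FPKM in rhChemerin, and the highest rhChemerin library overlapped the lowest NC library. The log2 fold change of -0.45 (SE 0.31; edgeR adjusted p = 0.409) ran from -0.76, without rhChemerin 3, to -0.25, without NC 3.

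**Figure D2:**
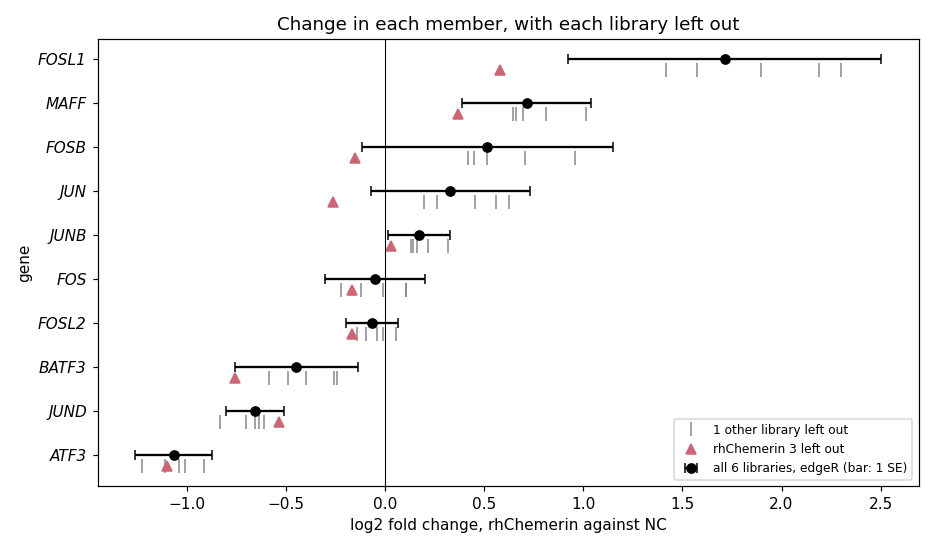
Log2 fold change of each member in rhChemerin against NC (x axis), with black points for edgeR on all 6 libraries, bars of 1 SE, grey ticks for the fits with 1 other library left out and red triangles for the fit without rhChemerin 3. ATF3, JUND and BATF3 stay below 0 in each of these fits, and FOSL1, MAFF and JUNB stay above 0. JUN and FOSB turn from above to below 0 without rhChemerin 3, at -0.26 and -0.15. FOS and FOSL2 cross 0 when certain other libraries are left out.

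Levels were ordered per length, by mean FPKM. In NC the order was JUND, JUN, FOSL1, JUNB, FOSL2, MAFF, ATF3, BATF3, FOS and FOSB. JUND was separate from JUN, FOSL2 from MAFF, MAFF from ATF3 and FOS from FOSB, whereas the ranges of the other neighbours overlapped. In rhChemerin the order was FOSL1, JUN, JUND, JUNB, FOSL2, MAFF, FOS, BATF3, ATF3 and FOSB. There FOSL1, JUN and JUND overlapped each other as neighbours, and so did FOSL2 and MAFF, FOS and BATF3, and BATF3 and ATF3.

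The make-up of each subfamily was taken from the FPKM within a library, which does not depend on the scaling between libraries. FOSL1 made up 49.7%, 57.2% and 71.2% of the summed FOS subfamily FPKM in NC 1 to 3 and 55.9%, 80.7% and 91.2% in rhChemerin 1 to 3. The sum itself ran from 58.3 to 126.9 FPKM in NC and from 60.7 to 348.8 FPKM in rhChemerin. The mean share of FOSL1 was 59.4% ± 10.9 in NC and 75.9% ± 18.2 in rhChemerin (SD, n = 3). This difference of 16.5 percentage points was within the spread of the libraries when they were taken as unpaired (exact two-sided permutation test, p = 0.3). The difference was 8.90 points without rhChemerin 3 and 26.6 without rhChemerin 1. FOSL2 held most of the remainder, between 7.77% and 44.0%, and FOS at most 5.89%. By share of counts, with no correction for length, FOSL2 and not FOSL1 was the larger of the pair in each library other than rhChemerin 3, and the FOSL1 difference was 21.1 percentage points.

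JUND made up 60.6%, 56.5% and 49.7% of the summed JUN subfamily FPKM in NC 1 to 3 and 56.8%, 41.7% and 25.9% in rhChemerin 1 to 3. JUN made up 24.9%, 27.9% and 37.2% in NC and 26.6%, 37.5% and 57.0% in rhChemerin. JUND was the largest part of the sum in each library other than rhChemerin 3, where JUN was. By share of counts JUN also exceeded JUND in NC 3 (50.3% against 39.8%) and rhChemerin 2 (50.8% against 33.4%). The difference of 10.3 percentage points for JUN was within the spread (exact two-sided permutation test, p = 0.4), as was that of -14.1 for JUND (p = 0.3 in the same exact test). The JUN difference was 2.03 points without rhChemerin 3 and 17.2 without rhChemerin 1. The JUNB share was 14.4% ± 1.25 in NC and 18.2% ± 2.27 in rhChemerin (SD, n = 3), and its groups did not overlap (p = 0.1 by exact permutation, two-sided, and no design of 3 against 3 can give less). By counts the JUNB shares did overlap, with a difference of 2.25 percentage points (p = 0.3, exact test). The summed JUN subfamily was 221.6 to 241.2 FPKM in NC and 165.5 to 219.2 FPKM in rhChemerin. These sums, unlike the shares, depend on the scaling between libraries. The TMM factor was 0.898 in rhChemerin 3, which had the sum of 219.2, and 1.037 to 1.054 in NC. The gap between 219.2 and 221.6 FPKM is therefore not read as a difference.

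**Figure D3:**
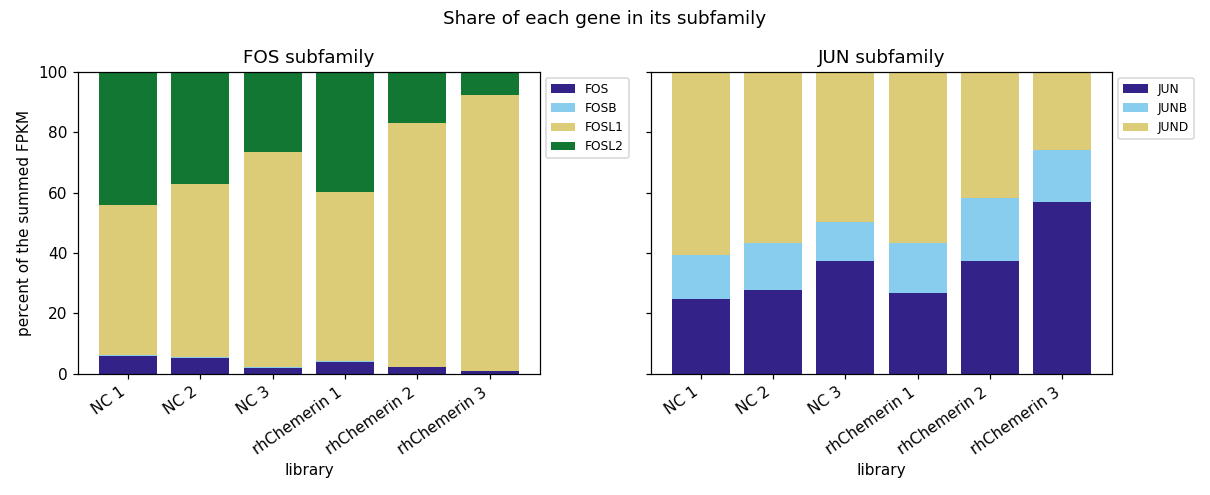
Percent of the summed FPKM of the FOS subfamily (left) and the JUN subfamily (right) taken by each gene, as stacked bars for each of the 6 libraries. FOSL1 takes 91.2% of the FOS bar and JUN 57.0% of the JUN bar in rhChemerin 3, while the same genes take 55.9% and 26.6% in rhChemerin 1.

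Among other basic leucine zipper genes, which can pair with or compete with the members, 0 of 26 tested passed edgeR's adjusted threshold, against 0.0301% of all genes. At an unadjusted p under 0.05, 3 were higher and 2 lower, against 22.8% of all genes in either direction. DESeq2 called 2 in each direction, against 9.38% of all genes in either direction. CREB5, a CRE-binding factor, stood at 0.928 to 1.25 FPKM in NC and 0.229 to 0.414 FPKM in rhChemerin, a log2 fold change of -1.63 (SE 0.23; adjusted p = 0.0692 in edgeR and 6.84e-09 in DESeq2). JDP2, a repressor that binds JUN proteins and AP-1 sites, had a log2 fold change of -0.56 (adjusted p = 0.138 in edgeR and 0.0463 in DESeq2). ATF6B, an endoplasmic reticulum stress factor, and NFE2L1, a regulator of proteasome genes, had values of 0.48 and 0.37 (adjusted p = 0.0948 and 0.101 in edgeR, 0.0086 and 0.00832 in DESeq2). The median of this list was 0.05, near that of all genes. BATF is not in the tables used here, and MAFA was below the filter.

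The MAP kinases, their upstream kinases and the ternary complex factors that switch on FOS and JUN gave a median of 0.04 on the log2 fold scale, and 15 of 26 were above 0. None passed with edgeR or DESeq2, against 0.0301% and 9.38% of all genes. At an unadjusted p under 0.05 there were 1 higher and 1 lower, against 22.8% of all genes. ELK1, an ETS factor, had a log2 fold change of 0.25 (edgeR adjusted p = 0.225), and 0.14 without rhChemerin 3. MAPK11, a p38 kinase, had -0.22, and MAPK10, a JNK kinase with only 2 to 43 counts, had -1.78 (edgeR adjusted p = 0.265 and 0.170).

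The other early response genes, which share serum and growth factor control with FOS and JUN, gave a median of 0.07 on the log2 fold scale, and 11 of 18 were above 0. With edgeR 0 passed after adjustment, against 0.0301% of all genes. At an unadjusted p under 0.05 there were 4 higher and 1 lower, against 22.8% of all genes. DESeq2 called 3 higher and 1 lower, against 9.38% of all genes. EGR1, a zinc finger factor, was 7.52, 6.37 and 4.75 FPKM in NC and 10.4, 7.44 and 21.2 FPKM in rhChemerin, a log2 fold change of 1.22 that was 0.60 without rhChemerin 3 (adjusted p = 0.154 in edgeR and 0.0199 in DESeq2, all libraries). ZFP36, which destabilises cytokine mRNAs, had 0.42 (adjusted p = 0.123 in edgeR and 0.0413 in DESeq2). BTG2, an antiproliferative gene, had -0.94 (adjusted p = 0.160 in edgeR and 0.0394 in DESeq2), and IER5 had -0.30 (adjusted p = 0.223 in edgeR). Without rhChemerin 1 or without rhChemerin 3, IER5 was -0.20 or -0.44. The median of this list was -0.27 without rhChemerin 3.

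Genes known as AP-1 targets had a median log2 fold change of 1.01, against 0.01 for all genes, and 18 of 21 tested were above 0. Without rhChemerin 3 the median was 0.02. With edgeR 0 passed after adjustment, 7 were higher and 1 lower at an unadjusted p under 0.05, and DESeq2 called 2 higher. Over all genes 0.0301% passed with edgeR, 11.4% were higher at an unadjusted p under 0.05 and 3.9% were called higher by DESeq2. MMP1, the interstitial collagenase, was 0.172, 0.331 and 1.90 FPKM in NC 1 to 3 and 1.67, 15.8 and 144.9 FPKM in rhChemerin 1 to 3. Its groups overlapped, and rhChemerin 3 stood far above the rest. The MMP1 log2 fold change was 6.28 (SE 1.73; adjusted p = 0.121 in edgeR and 0.00467 in DESeq2) and 3.54 without rhChemerin 3. MMP9, a gelatinase, was 0.254 to 0.903 FPKM in NC and 1.49 to 3.17 FPKM in rhChemerin, a log2 fold change of 2.00 (adjusted p = 0.106 in edgeR and 0.00149 in DESeq2). In the other direction, CCL2, a monocyte chemokine, had -0.95 and AREG, an EGF receptor ligand, had -1.44 (edgeR adjusted p = 0.184 and 0.300). On 3 to 53 counts, AREG ran from -2.43, without rhChemerin 3, to -0.93, without NC 3. MMP13 is not in the tables used here, and MMP3, MMP10 and IVL were below the filter. The library in which FOSL1, JUN and MAFF were highest, rhChemerin 3, was also the one in which MMP1 was highest. JUND was lowest in rhChemerin 3, and MMP9 was highest in rhChemerin 2, at 3.17 FPKM against 2.335 in rhChemerin 3. A link between the levels of the members and of these genes was not tested.

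Stress genes that are induced along with ATF3 gave a median of -0.36 on the log2 fold scale, and 10 of 14 were below 0. The median was -0.48 without rhChemerin 3. With edgeR 0 passed after adjustment, 1 was higher and 6 lower at an unadjusted p under 0.05, and DESeq2 called 4 lower. Over all genes 0.0301% passed with edgeR, 11.4% were lower at an unadjusted p under 0.05 and 5.47% were called lower by DESeq2. CHAC1, a glutathione-degrading enzyme, was 2.01, 1.77 and 2.49 FPKM in NC and 0.519, 0.533 and 0.553 FPKM in rhChemerin. Its log2 fold change was -1.83 (SE 0.22; adjusted p = 0.0574 in edgeR and 1.31e-10 in DESeq2). SESN2, a stress sensor that restrains mTORC1, was 12.9 to 14.4 FPKM in NC and 7.28 to 8.62 FPKM in rhChemerin, a log2 fold change of -0.71 (SE 0.10; adjusted p = 0.0692 in edgeR and 9.62e-07 in DESeq2). The groups did not overlap in either gene, but both were named for having the smallest p in this direction. In the whole list 6 of 14 genes were lower without overlap and 1 was higher, against 16.0% and 16.5% of all genes. ATF4 and DDIT3, transcription factors of this response and also counted among the other basic leucine zipper genes, had 0.07 and -0.12 (edgeR adjusted p = 0.833 and 0.651) and overlapped. Without rhChemerin 3 they had -0.15 and -0.22. PPP1R15A, which reverses the eIF2 alpha phosphorylation, had 1.07, and 0.35 without rhChemerin 3 (edgeR adjusted p = 0.190 with all libraries). HSPA5, the main chaperone of the endoplasmic reticulum, had 0.35 (edgeR adjusted p = 0.416), and 0.067 without rhChemerin 3.

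**Figure D4:**
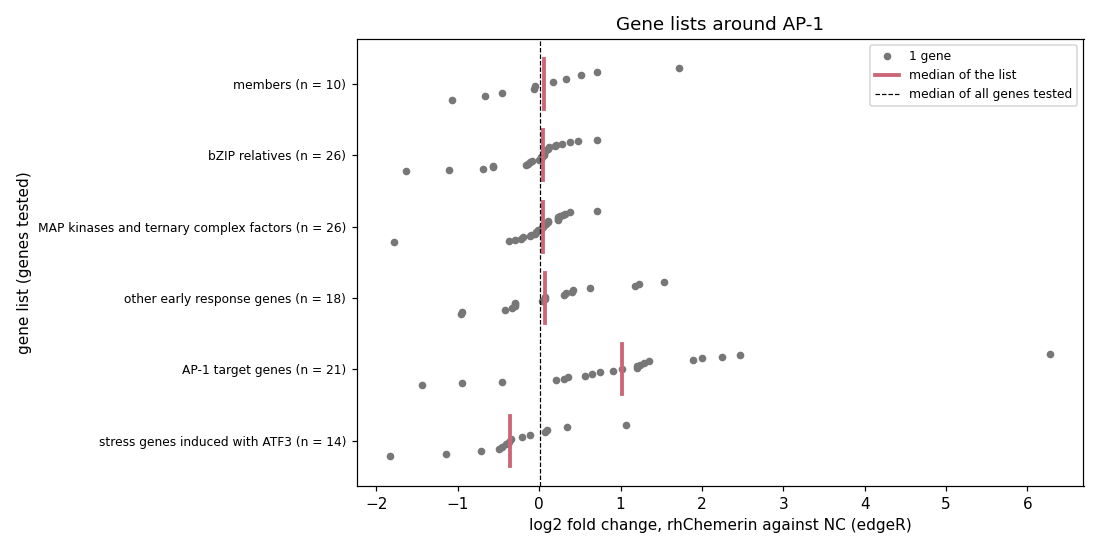
Log2 fold change in rhChemerin against NC (edgeR) for each tested gene of the members and 5 gene lists, with grey points for genes, a red bar for the list median and a dashed line at the median of all genes tested, 0.01. The AP-1 target genes have a median of 1.01 and the stress genes induced with ATF3 one of -0.36, while the medians of the other lists lie between 0.04 and 0.07.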

How the data were processed

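RNA from 6 libraries of 12Z cells (3 NC, 3 rhChemerin) was analysed. The authors trimmed reads with fastp, used HISAT2 for alignment to GRCh38.p13 and HTSeq for counting. The deposited read counts carry no normalization. The deposited FPKM equalled, within 0.1%, counts over the product of 1 length per gene and the library total in all 76321 values compared, so that FPKM carries no correction for composition. The annotation release and strand setting are not given in the sources used here. Counts were tested in R 4.3.3 with edgeR 4.0.16 (TMM, default filter on low counts, quasi-likelihood test, Benjamini-Hochberg adjustment over 13311 genes). Other settings tried were DESeq2 1.42.0, edgeR's likelihood-ratio and robust tests, other scaling and filters, limma 3.58.1 on FPKM (log2 after adding 1 or 0.1), a replicate block and leaving out each library. The scripts were tested on simulated data. The members and lists were chosen with earlier results of these data known. Named genes are all members, in each list the 2 genes with the smallest p in each direction, the 3 tested neighbours on each side of ATF3 and the genes of the LIF and STAT3 axis. One named result is not reported here. ATF4 and DDIT3 were named after their values were seen.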

Additional observations from a re-analysis of the deposited data

How the results depend on the processing

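The cause of each change below was not tested. With all 6 libraries, edgeR's quasi-likelihood test called 0 of the 10 members and 4 of all genes (2 members and 3038 genes had an unadjusted p under 0.05). DESeq2 called 2 members and 1319 genes, the likelihood-ratio test the same 2 members and 948 genes, and limma on log2(FPKM + 1) 1 member, ATF3, and 179 genes. For all genes, limma on log2(FPKM + 0.1) called 23, upper-quartile factors 0 (2908 at an unadjusted p under 0.05) and no filter 17. Leaving out 1 library gave 0 to 3 members and 0 to 844 genes with edgeR (3 members without rhChemerin 1, 1 without rhChemerin 3), and 1 to 4 members and 297 to 2651 genes with DESeq2. Some directions turned. With 1 library left out, FOS ran from -0.22 to 0.11 with edgeR and from -0.23 to 0.11 with DESeq2, and was above 0 without NC 2 (0.10) and without rhChemerin 1. FOSB ran from -0.15, without rhChemerin 3, to 0.96 (0.97 with DESeq2), and JUN from -0.26, without rhChemerin 3, to 0.62 (0.63 with DESeq2). FOSL2 ran from -0.17 to 0.052 with edgeR and 0.051 with DESeq2, above 0 without NC 3. The median of the members ran from -0.17 to 0.21, that of the other basic leucine zipper genes from -0.073 to 0.125 and that of the other early response genes from -0.27 to 0.32, each lowest without rhChemerin 3. The median of the MAP kinase list ran from -0.0073, without rhChemerin 2, to 0.067. Scaling by library size alone moved the median of all genes to -0.12. No member changed direction, but the medians of the members, the other basic leucine zipper genes, the MAP kinase list and the other early response genes turned to -0.079, -0.09, -0.083 and -0.081, each above the median of all genes. The values for these lists and their genes under the alternatives were added after the data were seen.

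Deviations of libraries with the same replicate number correlated at 0.241, 0.001 and 0.247 across genes. Those of libraries with different numbers correlated at -0.306 to 0.106. Whether equal numbers mark pairs is not stated in the labels, and the main test took none. From replicate 1 to 3 the FOSL1 and JUN shares of their subfamily FPKM rose, and the JUND share fell, in both groups. The permutation tests of the shares took no account of this order. With the replicate number as a block, edgeR called 0 members and 1 gene, and DESeq2 called 3 members (ATF3, JUND and MAFF) and 1490 genes. The FOSL1 log2 fold change in edgeR was then 1.31 (SE 0.32; adjusted p = 0.0926), against 1.71 (SE 0.79) without the block. In DESeq2 with the block it was 1.30 (SE 0.50; adjusted p = 0.07035).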

Other observations

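The genes next to ATF3 on chromosome 1 were read as local comparators. PPP2R5A, a phosphatase subunit, had a log2 fold change of 0.29 (edgeR adjusted p = 0.155), PACC1, a chloride channel, -0.11 and NENF, a secreted neurotrophic factor, 0.01 on one side. On the other side BATF3 had -0.45, NSL1, a kinetochore subunit, 0.02 and TATDN3 -0.10. None of the 6 passed with edgeR or DESeq2, against 0.0301% and 9.38% of all genes, so that this count does not mark out the locus. PPP2R5A was higher in rhChemerin without overlap of the groups, as were 16.5% of all genes. The ATF3 value of -1.07 lay below those of all 6.

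The genes of the LIF and STAT3 axis, a pathway that induces JUNB and FOS in many cells, overlapped between the groups in all 5 cases. Most genes did so, since only 16.0% of all genes were lower and 16.5% higher without overlap. With edgeR and DESeq2 0 of the 5 passed, against 0.0301% and 9.38% of all genes, so that these counts do not mark out the axis. LIF had a log2 fold change of 0.01, LIFR -0.22, IL6ST 0.10, STAT3 -0.17 and SOCS3, a feedback inhibitor, 0.22 (edgeR adjusted p between 0.448 and 0.985). Without rhChemerin 3 these values were -0.42, -0.057, -0.026, -0.051 and 0.42, so that LIF and IL6ST turned sign. STAT3 was 50.6 to 57.5 FPKM in NC and 34.5 to 52.7 FPKM in rhChemerin, with rhChemerin 3 the lowest.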
